A study of Drosophila melanogaster with 18 samples.

Results

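Germline loss of BAF was contrasted with loss of emerin in Drosophila ovaries by setting the effect of each against that of the other. The baf effect was the change in baf GLKD ovaries against ovaries of nosgal4 females, and the emerin effect was the change in emerin mutant ovaries against wild-type ovaries. The quantity reported for each gene is the baf effect minus the emerin effect, called the difference of effects here, so that a positive value means that RNA was higher, or fell less, upon loss of BAF. It draws on 15 of the 18 libraries of the series: 2 baf GLKD, 2 nosgal4, 4 emerin (2 G/PI and 2 G/PK) and 7 wild-type (4 CS and 3 yw) libraries. The other 3 libraries, of chk2, emerin double mutants, only added to the estimate of the spread. Of 12762 genes tested, 6 had a called difference of effects, which means a Benjamini-Hochberg adjusted p under 0.05 in edgeR's quasi-likelihood test.

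In baf GLKD, germline knockdown, the nos>gal4VP16 driver expressed a short hairpin RNA against baf (responder HMS00195) in germ cells. The nosgal4 females carried the driver alone, in a w background. The emerin mutants carried the null alleles G over PI or G over PK of Ote, the gene for emerin, in all their cells and in a yw background, and the wild-type references were Canton S (CS) and yw. Thus BAF was targeted in the germ line, whereas emerin was lacking in germ line and soma. The controls of both effects differed in strain. The responder line also carried y, sc, v and sev alleles, which the driver line is not stated to carry. Hairpin and strain background therefore cannot be told apart in the baf effect. All ovaries were from newly eclosed females, about 100 pairs per library, and the libraries came from separate RNA isolates. By the sample labels the knockdown was raised at 25 °C and every other genotype at room temperature, although the study's methods give 1 temperature for all crosses. If the labels hold, temperature and knockdown cannot be told apart.

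BAF, barrier-to-autointegration factor, is a small protein that binds DNA and the LEM domain, a fold shared by emerin and a few other proteins of the inner nuclear membrane. The BAF and LEM-domain partnership tethers chromatin to the nuclear lamina and helps to rebuild the nucleus after mitosis. In the Drosophila ovary both proteins are needed in the germ line for the survival of germline stem cells. By the study's account, loss of either deforms the nuclear lamina and activates the kinase Chk2. Ovaries that lose germ cells hold a larger share of RNA from somatic cells. In such bulk samples, fewer cells of a type and less RNA per cell cannot be told apart.

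Library totals were between 18138657 and 28372959 counts, with a median of 23468848. Levels are given in CPM, counts scaled to library size by TMM and expressed per 1e6. The summed level of the 5 germ line markers tested (vas, bam, orb, aub and zpg) was 829 and 946 CPM in baf GLKD libraries, against 2312 and 2278 CPM in nosgal4 libraries. The same sum was 637, 270, 262 and 217.2 CPM in emerin libraries (G/PI replicates 1 and 2, then G/PK replicates 1 and 2), against a range of 1645 to 2515 CPM with a median of 1878 in wild-type libraries. All 6 mutant libraries were below all 9 control libraries, and the emerin libraries were below the baf GLKD libraries. Markers of the muscle sheath went the other way, with sums of 12273 to 14072 CPM in baf GLKD libraries against 2350 to 3215 CPM in nosgal4 libraries, and of 24369 to 27335 CPM in emerin libraries against 2955 to 6056 CPM in wild-type libraries. Summed hemocyte, fat body and escort and follicle cell markers were also higher in all mutant libraries than in their own controls. Within the last sum, tj went the other way in emerin, at 42.1 to 111 CPM against 85.0 to 212 CPM in wild-type libraries. Its log2 fold change was -1.07 in emerin (edgeR adjusted p = 0.0120) and 0.21 in baf GLKD (edgeR adjusted p = 0.801). Gut markers were uneven, at 1044 and 946 CPM in both emerin G/PK libraries and at most 279 CPM elsewhere. Nerve markers were at 53.4 to 58.2 CPM in baf GLKD and 16.7 to 62.1 CPM in nosgal4 libraries. They were at 758 CPM in emerin G/PI replicate 1 against 75.6 to 83.3 CPM in the other emerin libraries, and at 1009 CPM in CS replicate 1 and 814 CPM in yw replicate 1 against 15.4 to 93.8 CPM in the other wild-type libraries. Emerin G/PI replicate 1 thus stood apart from the other emerin libraries by its germ line and nerve sums. It is also 1 of 7 libraries, with baf GLKD replicate 1 and nosgal4 replicate 1 among them, whose deposited transcript tables total less than the gene table. These are called the first library set and the other libraries the second, and each effect holds libraries of both kinds.

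**Figure D1:**
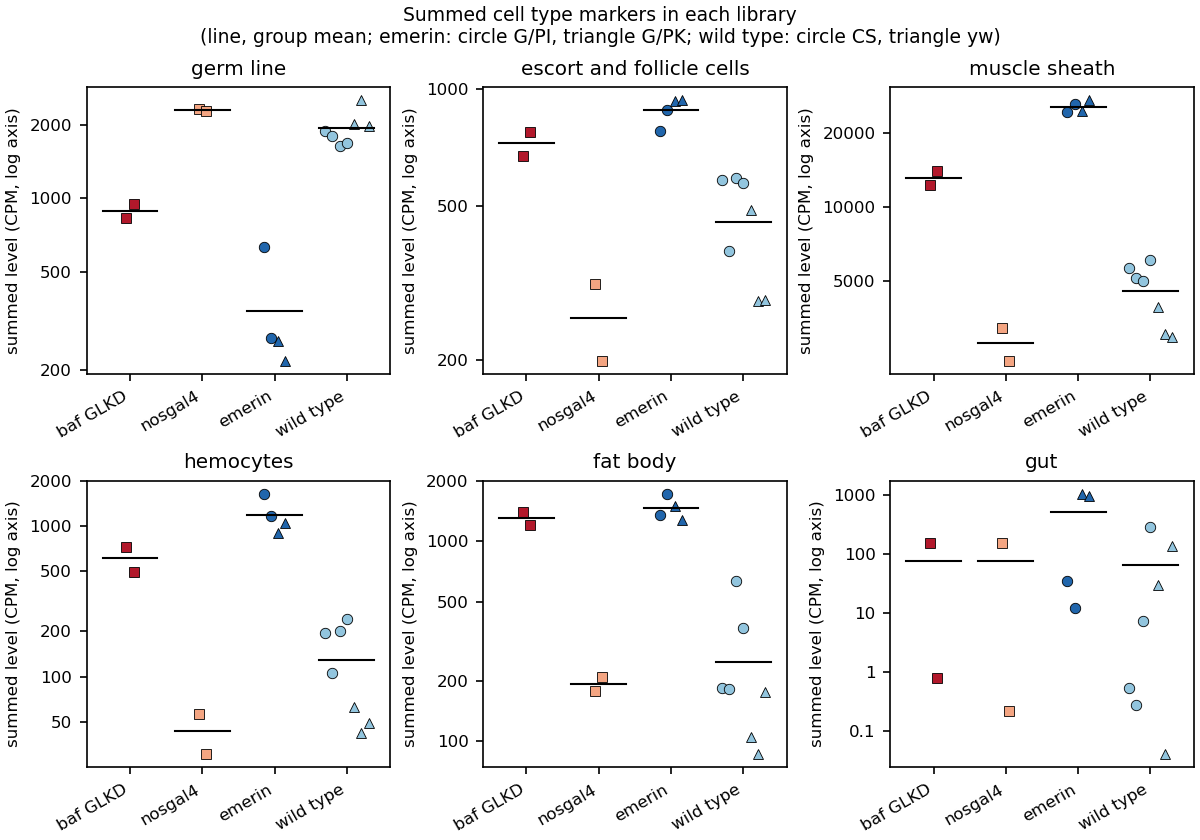
Summed level in CPM (log axis) of the markers of 6 cell types in each library of the 4 groups; each point is a library, lines are group means, and in emerin and wild type the symbols separate the backgrounds. The germ line sums of baf GLKD (829 and 946 CPM) lie between those of emerin (217.2 to 637 CPM) and those of the controls (1645 to 2515 CPM).

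The knockdown target and the mutated gene were examined first. baf was at 66.4 and 72.5 CPM in baf GLKD libraries, against 86.0 and 110 CPM in nosgal4 libraries. The groups did not overlap, but the difference was not called, at -0.50 on the log2 scale (SE 0.31, edgeR adjusted p = 0.261). baf was at 76.8 to 96.6 CPM in emerin libraries, against 83.2 to 195 CPM in wild-type libraries. Ote was at 39.1 and 56.5 CPM in baf GLKD libraries, against 61.5 and 82.1 CPM in nosgal4 libraries. Ote was at 59.0, 32.7, 17.9 and 11.7 CPM in emerin libraries, against 64.8 to 85.3 CPM in wild-type libraries. All emerin libraries were below all wild-type libraries, and Ote fell in emerin by 1.33 on the log2 scale (SE 0.31, edgeR adjusted p = 0.00175). The knockdown of baf is therefore not shown by its RNA in whole ovaries.

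Both effects were broad and far more genes were called in each alone than in the difference. In baf GLKD against nosgal4, 1692 genes were higher (13.3% of those tested) and 1057 lower (8.28%). In emerin against wild type, 3608 genes were higher (28.3%) and 3392 lower (26.6%). The difference of effects was called positive for 4 genes (0.0313%) and negative for 2 (0.0157%). At an unadjusted p under 0.05 it was positive for 583 genes (4.57%) and negative for 414 (3.24%). The low count has to be read with the size of the groups, since the baf effect rests on 2 libraries against 2 and the median SE of a difference was 0.49 on the log2 scale.

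Size and direction were compared within the genes called in both effects. Of 1576 genes that rose in both, the median log2 fold change was 2.24 in baf GLKD and 2.14 in emerin, and 46.6% changed more in emerin. Of 1014 genes that fell in both, the median was -0.76 in baf GLKD and -0.86 in emerin, and 64.8% changed more in emerin. Over all genes tested this share was 57.2%. The genes were picked by their calls, and the baf effect rests on fewer libraries, so it generally had to be larger to be called. These medians and shares therefore do not show which effect is larger. Another 4405 genes were called in emerin alone, but the difference of effects was called for 1 of them. For 154 genes called in baf GLKD alone it was called for 2. Of all 12762 genes it was called for 6. At an unadjusted p under 0.05 in the edgeR test, a difference was found for 554 of the 4405, 94 of the 154 and 997 of all genes. These classes were picked by the effects that make up the difference, so the shares are not a test.

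**Figure D2:**
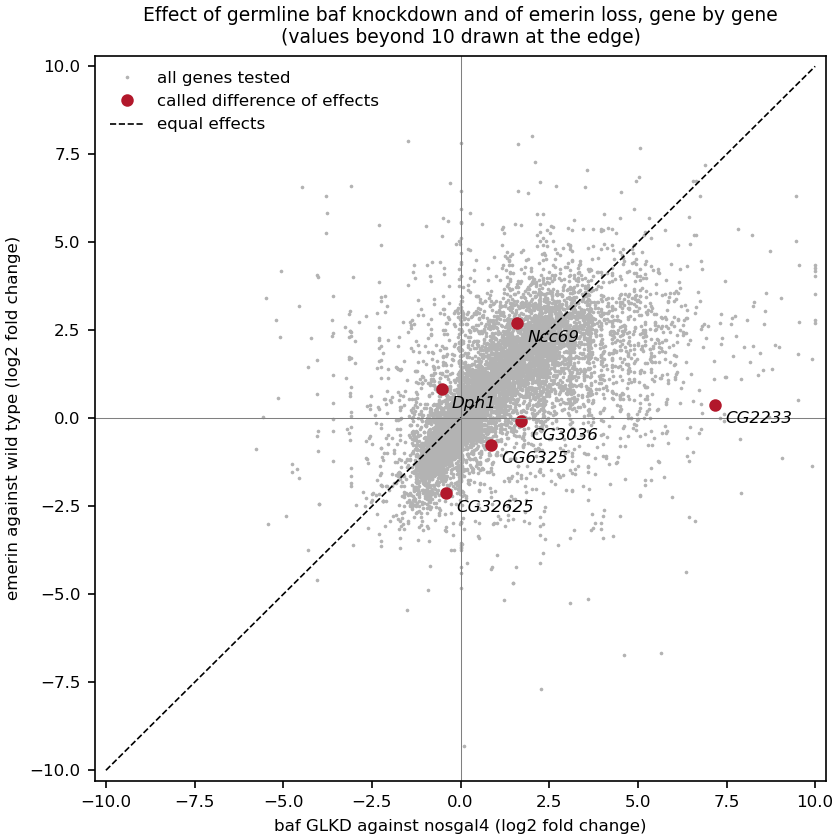
Log2 fold change of emerin against wild type (vertical axis) over that of baf GLKD against nosgal4 (horizontal axis) for 12762 genes (grey); red points are the 6 genes with a called difference of effects and the dashed line marks equal effects. The cloud follows the dashed line, and the called genes lie off it, 4 below and 2 above.

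The 6 called genes fell into 2 patterns when the levels of all groups were inspected. For CG32625, Dph1 and Ncc69 the baf GLKD and emerin libraries did not overlap, and no difference between nosgal4 and wild type was called. The controls overlapped for Dph1, whereas both nosgal4 libraries were above all wild-type libraries for Ncc69 and nosgal4 replicate 1 was below all of them for CG32625. Compared directly, baf GLKD against emerin, the log2 fold change was 1.30 for CG32625 (edgeR adjusted p = 0.00958), -1.32 for Dph1 (edgeR adjusted p = 0.00511) and -0.87 for Ncc69 (edgeR adjusted p = 0.0109). This direct comparison uses the same baf GLKD and emerin libraries that gave the calls, so it is not separate support. It also contains the differences in strain and, if the labels hold, in temperature. For CG3036, CG6325 and CG2233 the nosgal4 libraries were low, and the mutants were near each other. Positions are those of the BDGP6.54 annotation of the dm6 assembly.

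Ncc69 (chromosome 3L, 12368646 to 12391444) encodes a sodium-potassium-chloride cotransporter of the plasma membrane. It was at 247 and 301 CPM in baf GLKD libraries, against 89.7 and 91.2 CPM in nosgal4 libraries. It was at 548, 495, 424 and 541 CPM in emerin libraries, against 65.4 to 85.6 CPM (median 77.9) in wild-type libraries. Ncc69 therefore rose in both mutants, and every emerin library was above both baf GLKD libraries. The log2 fold change was 1.598 in baf GLKD (SE 0.16) and 2.70 in emerin (SE 0.10), with a difference of effects of -1.10 (SE 0.19, edgeR adjusted p = 0.0436). The muscle sheath marker sum was likewise highest in emerin, then in baf GLKD, with the controls below both. Unlike Ncc69, its nosgal4 sums (2350 to 3215 CPM) were not above those of wild type (2955 to 6056 CPM). The part of the muscle sheath in this result was not tested.

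Dph1 (chromosome 3L, 11693879 to 11696963) encodes an enzyme of the first step of diphthamide synthesis, a modification of translation elongation factor 2. It was at 32.8 and 24.8 CPM in baf GLKD libraries, against 39.8 and 43.8 CPM in nosgal4 libraries. It was at 68.7, 71.5, 71.2 and 77.1 CPM in emerin libraries, against 32.2 to 48.4 CPM (median 42.1) in wild-type libraries. Dph1 was thus called in opposite directions, with both baf GLKD libraries below nosgal4 and all emerin libraries above wild type. The log2 fold change was -0.54 in baf GLKD (SE 0.18, edgeR adjusted p = 0.0473) and 0.82 in emerin (SE 0.11, edgeR adjusted p = 1.57e-05). The difference of effects was -1.36 (SE 0.22, edgeR adjusted p = 0.0329).

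CG32625 (chromosome X, 13756164 to 13756826) was at 18.1 and 20.1 CPM in baf GLKD libraries, against 22.3 and 28.8 CPM in nosgal4 libraries. It was at 6.56, 9.44, 8.04 and 6.97 CPM in emerin libraries, against 28.3 to 46.1 CPM (median 30.5) in wild-type libraries. All emerin libraries were below both baf GLKD libraries. CG32625 fell in emerin, at -2.13 on the log2 scale (SE 0.17), and was at -0.42 in baf GLKD (SE 0.24, edgeR adjusted p = 0.229). The difference of effects was 1.71 (SE 0.29, edgeR adjusted p = 0.0436).

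CG3036 (chromosome 2L, 4892112 to 4903889) had the smallest adjusted p of all genes. It was at 41.8 and 47.2 CPM in baf GLKD libraries, against 15.1 and 12.3 CPM in nosgal4 libraries. It was at 36.2, 42.3, 37.4 and 36.7 CPM in emerin libraries, against 33.9 to 43.5 CPM (median 41.9) in wild-type libraries. Only the nosgal4 libraries stood apart, and emerin and wild-type libraries overlapped. The log2 fold change was 1.70 in baf GLKD (SE 0.16) and -0.07 in emerin (SE 0.10), and the difference of effects was 1.77 (SE 0.19, edgeR adjusted p = 0.000877). The nosgal4 libraries were lower than wild type by -1.55 on the log2 scale (edgeR adjusted p = 8.9e-05).

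CG6325 (chromosome 3R, 10402967 to 10407285) was at 23.5 and 22.3 CPM in baf GLKD libraries, against 12.2 and 13.2 CPM in nosgal4 libraries. It was at 23.4, 20.5, 21.0 and 24.4 CPM in emerin libraries, against 30.8 to 44.8 CPM (median 38.1) in wild-type libraries. The levels in both mutants overlapped, with nosgal4 below them and wild type above. Its log2 fold change was 0.85 in baf GLKD and -0.75 in emerin, both called, and the difference of effects was 1.601 (SE 0.21, edgeR adjusted p = 0.00557). Between nosgal4 and wild type the log2 fold change was -1.56.

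CG2233 (chromosome X, 8035741 to 8037517) was at 46.1 and 26.8 CPM in baf GLKD libraries, against 0.48 CPM (12 counts) and 0 in nosgal4 libraries. It was at 59.6, 67.3, 49.8 and 46.4 CPM in emerin libraries, against 19.9 to 85.5 CPM (median 32.9) in wild-type libraries. The gene was near absent only in nosgal4, and emerin libraries lay within the range of wild type. The log2 fold change was 7.16 in baf GLKD and 0.39 in emerin, and the difference of effects was 6.77 (SE 0.96, edgeR adjusted p = 0.0109). Its size depends on the 12 counts of nosgal4 replicate 1, because without that library the estimate was 12.29, and without nosgal4 replicate 2 it was 5.83 and no longer called (edgeR adjusted p = 0.168).

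**Figure D3:**
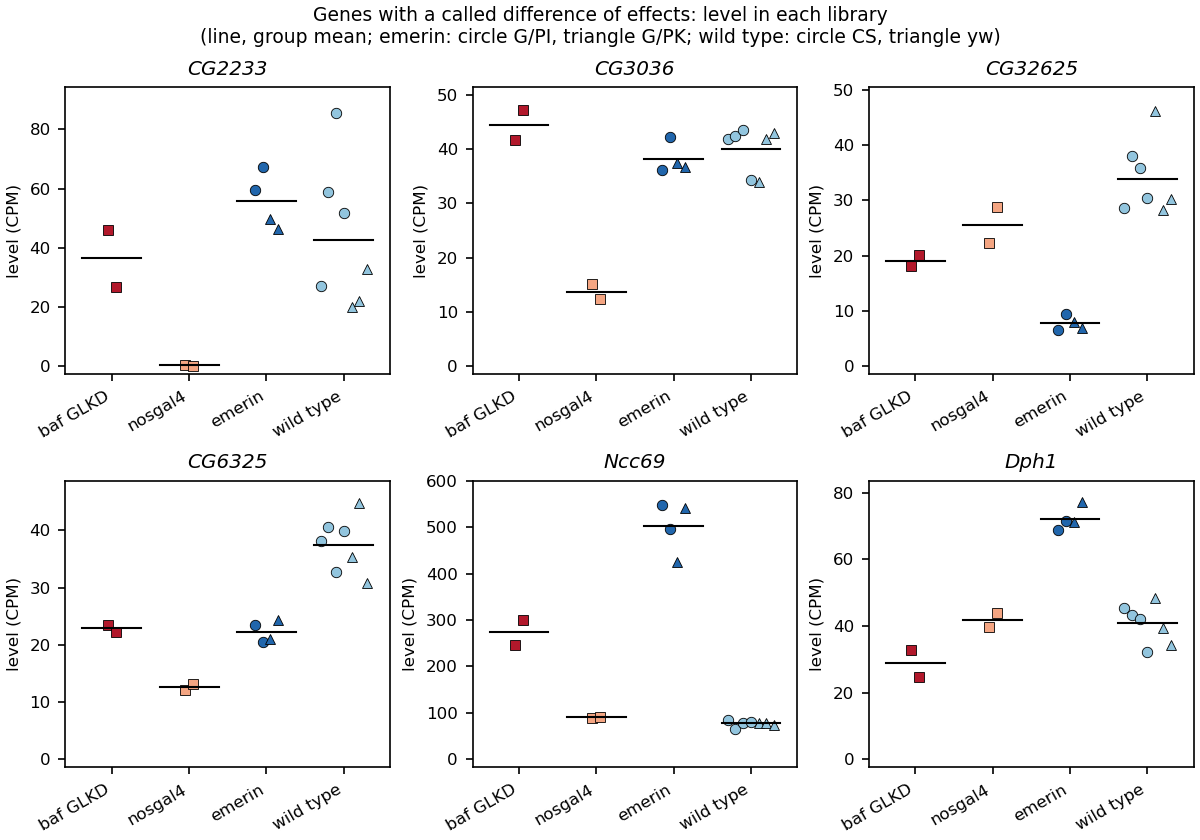
Level in CPM of the 6 genes with a called difference of effects; each point is a library, lines are group means, and in emerin and wild type circles are G/PI and CS and triangles are G/PK and yw. In CG2233, CG3036 and CG6325 the nosgal4 libraries (at most 15.1 CPM) are lower than all others, whereas in CG32625, Ncc69 and Dph1 the baf GLKD and emerin libraries are apart.

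How far the controls differ was therefore tested for all genes. In nosgal4 against wild type, 17 genes were higher (0.133% of those tested) and 8 lower (0.0627%). Of these 25 genes, 3 had a called difference of effects, CG3036, CG6325 and CG2233, and 18 had one at an unadjusted p under 0.05. A difference of effects contains this step between controls by construction. The eye color gene w, which is also a common marker of transgenes, was at 91.8 and 120 CPM in baf GLKD libraries, against 253 and 262 CPM in nosgal4 libraries. It was at 28.8, 70.8, 16.1 and 1.99 CPM in emerin libraries, against 1.23 to 22.8 CPM in wild-type libraries. Its difference of effects was not called, at -2.62 (SE 1.52, edgeR adjusted p = 0.731).

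The count of called genes was sensitive to single libraries and to the test. CG3036 was called in all 33 other settings, CG2233 in 30, CG6325 in 29, Dph1 in 16, CG32625 in 14 and Ncc69 in 10, and no setting turned the direction of any of them. With the replicate number as a block, the calls of CG2233, Dph1, CG32625 and Ncc69 were lost (edgeR adjusted p of 0.0664, 0.0786, 0.156 and 0.156). Without emerin G/PI replicate 1, 37 genes were positive and 7 negative, and in DESeq2, 61 and 70.

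**Figure D4:**
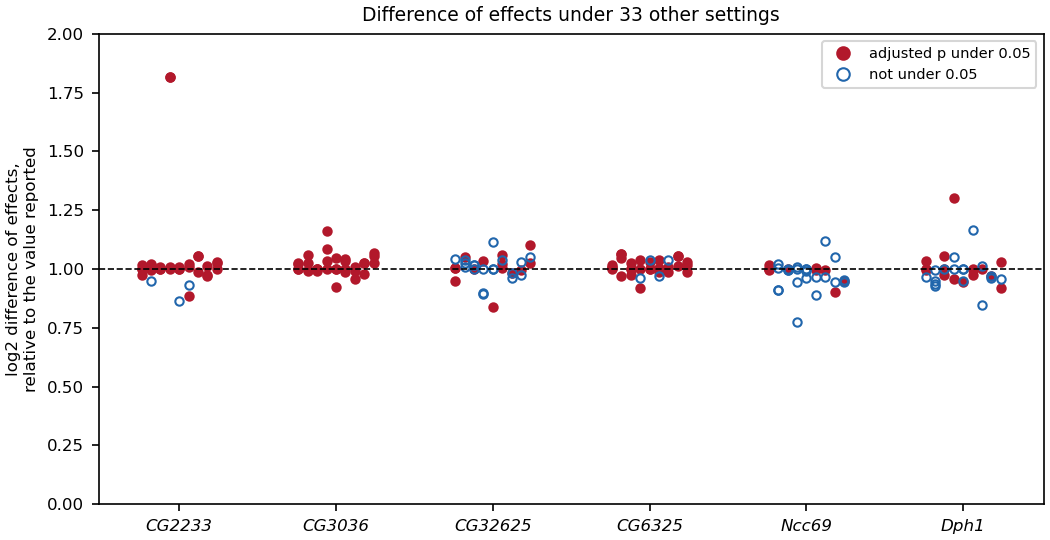
Log2 difference of effects of the 6 called genes under 33 other settings, divided by the value reported (1 on the vertical axis); filled red points had an adjusted p under 0.05 and open blue points did not. All ratios are above 0, and the log2 differences behind them ran from 1.63 to 2.06 for CG3036 and from -1.77 to -1.15 for Dph1, while those of CG2233 reached 12.29 and 12.31 in the settings without nosgal4 replicate 1.

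Just outside the threshold were Past1 and CG30383, which were chosen after their values were seen. Past1 encodes an EHD-type protein of endocytic recycling. It was at 195 and 185 CPM in baf GLKD libraries, against 133 and 134 CPM in nosgal4 libraries. It was at 330, 316, 292 and 335 CPM in emerin libraries, against 115.4 to 131 CPM in wild-type libraries. Like Ncc69 it was higher in both mutants and highest in every emerin library, with a difference of effects of -0.84 (SE 0.15, edgeR adjusted p = 0.0524). CG30383 was at 2.79 and 3.18 CPM in baf GLKD libraries, against 3.41 and 3.15 CPM in nosgal4 libraries. It was at 1.38, 1.04, 0.84 and 0.73 CPM in emerin libraries, against 3.86 to 6.37 CPM in wild-type libraries. All emerin libraries were below all wild-type libraries, while baf GLKD and nosgal4 libraries overlapped. Both nosgal4 libraries were also below all wild-type libraries. The difference of effects for CG30383 was 2.30 (SE 0.41, edgeR adjusted p = 0.0546).

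Opposite calls, whose genes were likewise chosen after their values were seen, were rare, with 2 genes higher in baf GLKD and lower in emerin and 3 the other way round. Of these, CG6325 and Dph1 also had a called difference of effects. E(spl)m7-HLH, a Notch target and transcriptional repressor, was at 4.65 and 10.3 CPM in baf GLKD libraries, against 2.13 and 2.26 CPM in nosgal4 libraries. It was at 1.91, 1.61, 3.67 and 1.31 CPM in emerin libraries, against 3.16 to 4.37 CPM in wild-type libraries. Its difference of effects was 2.58 (SE 0.54, edgeR adjusted p = 0.132), with a 95% interval of 1.45 to 3.72. For this gene both nosgal4 libraries were below all wild-type libraries, and the baf GLKD libraries were uneven. The remaining genes were nolo (difference -2.60, edgeR adjusted p = 0.148) and CG7737 (difference -0.92, edgeR adjusted p = 0.207). For nolo the nosgal4 libraries were again the ones apart, at 2.32 and 2.33 CPM in baf GLKD against 6.22 and 7.09 CPM in nosgal4, and at 2.44 to 3.82 CPM in emerin against 0.76 to 1.93 CPM in wild type.

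Processes were compared through 32 lists of genes, described by the median difference of effects and by counts. No list held a gene with a called difference, so the counts below use an unadjusted p under 0.05, at which 4.57% of all genes were positive and 3.24% negative. The median difference of all genes was 0.10 on the log2 scale, and 0.20 with scaling by library size only. Of all 12762 genes, the difference was positive for 7344 and negative for 5411, and the sign counts of the lists have to be read beside these. Counts of members that rose or fell have to be read beside the shares of all genes. Of all genes, 13.3% rose and 8.28% fell in baf GLKD, and 28.3% rose and 26.6% fell in emerin. For each list, medians of single libraries against the mean of their own controls are given on the scale of log2(CPM + 0.5).

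Genes of the germ line had negative median changes in both mutants and a positive median difference of effects, with no member called for that difference. In the list of germ cell identity, 18 genes were tested, of which 0 rose and 7 fell in baf GLKD and 1 rose and 15 fell in emerin (of all genes, 8.28% and 26.6% fell). The median log2 fold change was -0.91 in baf GLKD and -1.95 in emerin, with a median difference of 0.70. The medians were -0.95 and -0.84 in baf GLKD libraries, against -1.22 in emerin G/PI replicate 1 and -2.04 to -2.29 in the other emerin libraries. All baf GLKD libraries were thus less affected than all emerin libraries. The difference was positive at the unadjusted threshold for 9 of 18 members (tej, stil, ovo and Phf7 among them) and negative for 0.

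tej, a Tudor domain component of the piRNA machinery that both germ line lists hold, was at 29.5 and 29.1 CPM in baf GLKD libraries, against 58.0 and 59.0 CPM in nosgal4 libraries. It was at 23.3, 11.8, 13.4 and 12.1 CPM in emerin libraries, against 53.4 to 76.2 CPM (median 63.1) in wild-type libraries. tej fell in both mutants, further in each emerin library, with a difference of effects of 1.06 (SE 0.31, 95% interval 0.42 to 1.71, edgeR adjusted p = 0.324). stil, a germline regulator of otu in Drosophila, followed the same order. It was at 13.95 and 13.3 CPM in baf GLKD libraries, against 26.5 and 27.8 CPM in nosgal4 libraries, and at 11.4, 5.86, 6.35 and 5.03 CPM in emerin libraries, against 24.2 to 34.2 CPM in wild-type libraries. The difference for stil was 1.04 (SE 0.33, edgeR adjusted p = 0.385). ovo, a transcription factor of the female germ line, was at 174 and 152 CPM in baf GLKD libraries, against 233 and 109 CPM in nosgal4 libraries. It was at 119, 43.9, 63.1 and 48.6 CPM in emerin libraries, against 84.3 to 382 CPM in wild-type libraries, and its controls overlapped the mutants.

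The piRNA pathway silences transposons in the gonad. Of 27 genes, 0 rose and 18 fell in baf GLKD, and 0 rose and 25 fell in emerin. The median was -0.80 in baf GLKD and -1.44 in emerin, and 25 of 27 differences were positive with a median of 0.60, 12 of them at the unadjusted threshold and 0 negative. Medians of libraries were -0.80 in both baf GLKD libraries, against -1.19 to -1.62 in emerin libraries. krimp, which organizes piRNA factors in the perinuclear nuage, was at 40.5 and 35.7 CPM in baf GLKD libraries, against 55.4 and 56.6 CPM in nosgal4 libraries. It was at 25.8, 18.4, 24.7 and 22.5 CPM in emerin libraries, against 54.1 to 73.1 CPM in wild-type libraries. No baf GLKD library overlapped an emerin library, and the difference was 0.88 (SE 0.21, 95% interval 0.44 to 1.33, edgeR adjusted p = 0.214).

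zuc, the nuclease that forms piRNA ends, was at 16.4 and 18.5 CPM in baf GLKD libraries, against 29.9 and 35.1 CPM in nosgal4 libraries. It was at 11.6, 9.49, 10.6 and 7.44 CPM in emerin libraries, against 28.5 to 35.9 CPM in wild-type libraries. The difference for zuc was 0.81 (SE 0.23, edgeR adjusted p = 0.307). piwi, the nuclear Argonaute of both germ line and somatic cells, had the same order at higher levels. It was at 236 and 272 CPM in baf GLKD libraries, against 421 and 423 CPM in nosgal4 libraries, and at 200, 147, 174 and 161 CPM in emerin libraries, against 393 to 647 CPM in wild-type libraries. Its difference was 0.84 (SE 0.24, edgeR adjusted p = 0.324).

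Meiotic and cell cycle genes showed similar medians. Of 25 genes of the synaptonemal complex and meiotic breaks, 0 rose and 4 fell in baf GLKD and 1 rose and 19 fell in emerin, and the median difference was 0.58 with 7 positive and 0 negative at the unadjusted threshold. c(3)G, the transverse filament protein of the complex, was at 28.2 and 30.4 CPM in baf GLKD libraries, against 57.4 and 50.1 CPM in nosgal4 libraries. It was at 22.97, 16.2, 29.4 and 22.7 CPM in emerin libraries, against 53.2 to 107 CPM in wild-type libraries, so that the mutants overlapped and the difference of 1.02 (SE 0.33, edgeR adjusted p = 0.392) included lower controls for baf GLKD. Of 19 maternal cell cycle genes, 0 rose and 6 fell in baf GLKD and 0 rose and 19 fell in emerin. Their median difference was 0.71, with 7 positive and 0 negative.

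CycB3, a mitotic and meiotic cyclin, was at 59.4 and 55.7 CPM in baf GLKD libraries, against 81.3 and 82.4 CPM in nosgal4 libraries. It was at 40.4, 29.2, 34.3 and 33.1 CPM in emerin libraries, against 68.8 to 94.9 CPM in wild-type libraries. Its difference was 0.70 (SE 0.21, edgeR adjusted p = 0.341). Cdk2, the kinase partner of cyclin E, was at 37.8 and 38.2 CPM in baf GLKD libraries, against 47.5 and 66.5 CPM in nosgal4 libraries. It was at 29.7, 25.8, 24.3 and 22.4 CPM in emerin libraries, against 52.4 to 75.9 CPM in wild-type libraries, with a difference of 0.77 (SE 0.22, edgeR adjusted p = 0.307). For both genes all emerin libraries were below both baf GLKD libraries.

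Oocyte genes had a smaller median difference of 0.34 over 28 genes, with 3 positive and 1 negative, and 9 fell and 0 rose in baf GLKD while 18 fell and 1 rose in emerin. orb, an RNA-binding regulator of oocyte identity, was at 319 and 407 CPM in baf GLKD libraries, against 1129 and 1081 CPM in nosgal4 libraries. It was at 229, 80.0, 62.4 and 49.9 CPM in emerin libraries, against 696 to 1363 CPM (median 921) in wild-type libraries. cup, a translational repressor of localized mRNAs, was at 104 CPM in both baf GLKD libraries, against 257 and 239 CPM in nosgal4 libraries. It was at 64.6, 28.4, 20.2 and 14.98 CPM in emerin libraries, against 152 to 215 CPM in wild-type libraries. In both genes emerin G/PI replicate 1 lay between baf GLKD and the other emerin libraries, and the differences were 1.54 for orb (SE 0.60, edgeR adjusted p = 0.530) and 1.22 for cup (SE 0.51, edgeR adjusted p = 0.558).

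DNA replication genes differed little. Of 38, 0 rose and 18 fell in baf GLKD, 0 rose and 37 fell in emerin, and 36 of 38 differences were positive but with a median of 0.29 and 2 at the unadjusted threshold. Genes for histone variants and chromatin also had a median of 0.29, with 2 positive and 0 negative of 23. The germ line marker sum has the same order of groups (829 and 946 CPM in baf GLKD, 217.2 to 637 CPM in emerin), and its part in the medians of these lists was not tested. Their medians stayed positive in all settings tried, from 0.51 to 0.86 for the piRNA pathway, from 0.59 to 1.21 for germ cell identity, and from 0.49 to 0.86 for the maternal cell cycle.

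**Figure D5:**
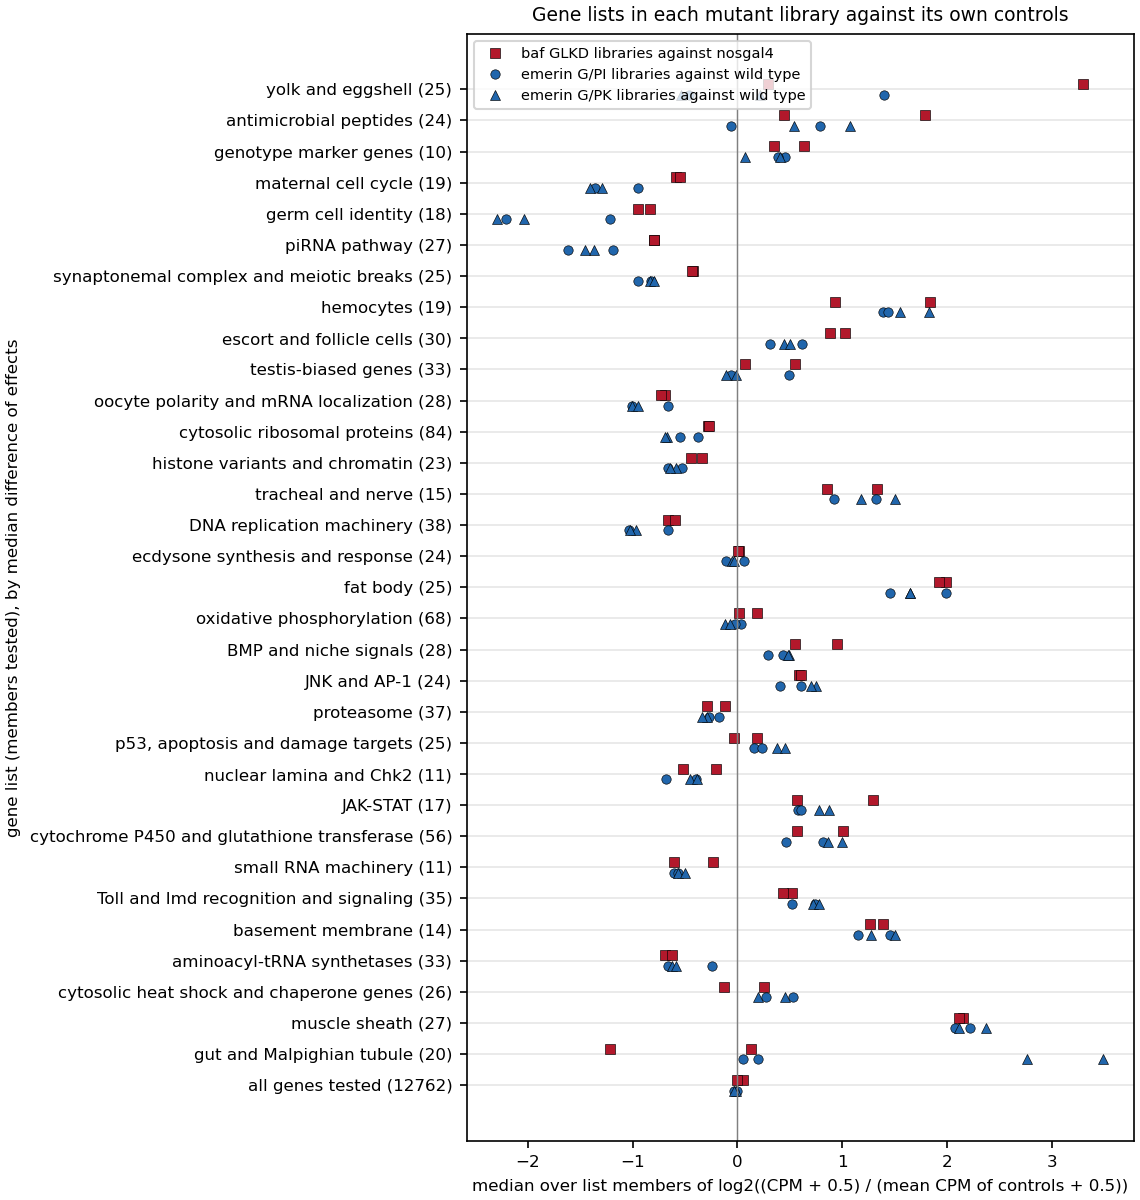
Median over the members of each of 32 gene lists, and over all genes, of the log2 ratio of a library's CPM to the mean CPM of its own controls (0.5 added to both); red squares are baf GLKD libraries, blue circles and triangles emerin G/PI and G/PK libraries, and lists are ordered by their median difference of effects. In the germ cell identity and piRNA lists every baf GLKD library lies to the right of every emerin library, while for yolk and eggshell genes and for gut genes libraries of the same group lie far apart.

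Aminoacyl-tRNA synthetases, which charge tRNAs for translation, had a negative median difference. Their median was higher in nosgal4 than in wild type by 0.27 on the log2 scale, and between baf GLKD and emerin directly it was 0.10. Of 33, 26 fell in baf GLKD and 29 in emerin, 0 rose in either, and 26 differences were negative. The medians were -0.70 in baf GLKD and -0.52 in emerin, and the median difference was -0.10, against 0.10 for all genes. With scaling by library size only, this median was at 0.00. AlaRS-m, the mitochondrial alanyl enzyme, was at 32.4 and 36.3 CPM in baf GLKD libraries, against 50.1 and 47.3 CPM in nosgal4 libraries. It was at 39.1, 39.1, 37.8 and 42.9 CPM in emerin libraries, against 37.8 to 45.5 CPM in wild-type libraries. AlaRS-m fell in baf GLKD, with both nosgal4 libraries above all wild-type libraries, and had a difference of -0.50 (SE 0.15, edgeR adjusted p = 0.380). ValRS, the valyl enzyme, was at 128 and 147 CPM in baf GLKD libraries, against 278 and 237 CPM in nosgal4 libraries. It was at 162, 114.5, 123 and 133 CPM in emerin libraries, against 146 to 215 CPM in wild-type libraries. The mutants overlapped, and the larger fall in baf GLKD went with higher nosgal4 levels (difference -0.48, SE 0.23, edgeR adjusted p = 0.648).

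Cytosolic ribosomal protein genes were lower in emerin for 57 of 84 members and higher for 1, whereas in baf GLKD 0 were called in either direction. The medians were -0.55 in emerin and -0.27 in baf GLKD. The median difference was 0.30, with 73 of 84 positive and 2 at the unadjusted threshold, and it was at 0.03 once the trend with transcript length was removed. For oxidative phosphorylation (68 genes) and the proteasome (37 genes) the median differences were 0.12 and 0.08, about that of all genes.

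Lists of somatic cells held many genes that rose in both mutants. Of all genes, 13.3% rose in baf GLKD and 28.3% in emerin. In the muscle sheath list, 18 of 27 rose in baf GLKD and 23 in emerin, with medians of 2.14 and 2.18, and 0 fell in either. The median difference was -0.20, with 21 of 27 negative, and was -0.57 against yw alone, 0.01 against CS alone, 0.08 with the second library set only and 0.03 without nosgal4 replicate 1. Tm1, a tropomyosin, was at 1108 and 1078 CPM in baf GLKD libraries, against 526 and 493 CPM in nosgal4 libraries. It was at 1858, 1689, 1659 and 1758 CPM in emerin libraries, against 469 to 704 CPM in wild-type libraries. All emerin libraries were above both baf GLKD libraries, and the difference was -0.47 (SE 0.19, edgeR adjusted p = 0.544). Basement membrane genes, with 8 of 14 higher in baf GLKD and 10 in emerin, had a median difference of -0.07, which was -0.62 against yw alone and 0.25 against CS alone.

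Fat body genes rose for 14 of 25 in baf GLKD and 18 in emerin, with medians of 2.01 and 2.00. Hemocyte genes rose for 9 of 19 in baf GLKD and 14 in emerin, with a median difference of 0.55 that was at -0.49 against yw alone. NimC1, a phagocytic receptor of hemocytes, was at 24.3 and 22.4 CPM in baf GLKD libraries, against 0.56 and 0.75 CPM in nosgal4 libraries. It was at 48.3, 42.8, 32.7 and 40.5 CPM in emerin libraries, against 0.63 to 23.7 CPM in wild-type libraries. The level was higher in emerin than in baf GLKD. Wild-type libraries split by strain, at 14.2 to 23.7 CPM in CS and 0.63 to 0.81 CPM in yw. The nosgal4 libraries were near yw and far below CS. The difference for NimC1 was 3.23 (SE 1.602, edgeR adjusted p = 0.661), and it ran from -0.72 to 3.99 in the other settings.

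Escort and follicle cell genes had a median difference of 0.52 over 30 members, with 2 positive and 0 negative, and of 0.05 against yw alone. In baf GLKD 8 rose and 1 fell (of all genes, 13.3% and 8.28%), and in emerin 13 rose and 7 fell (of all genes, 28.3% and 26.6%). Six4, a homeobox factor of the somatic gonad, was at 44.4 and 74.5 CPM in baf GLKD libraries, against 93.0 and 113 CPM in nosgal4 libraries. It was at 62.1, 27.3, 35.4 and 23.4 CPM in emerin libraries, against 121 to 194 CPM in wild-type libraries. cas, a zinc finger factor of polar and stalk cell precursors, was at 30.9 and 69.8 CPM in baf GLKD libraries, against 11.2 and 12.9 CPM in nosgal4 libraries. It was at 13.9, 26.1, 29.99 and 19.5 CPM in emerin libraries, against 9.69 to 35.6 CPM in wild-type libraries. cas was called higher in baf GLKD and not in emerin, with a difference of 1.94 (SE 0.66, edgeR adjusted p = 0.424). Six4 was lower in both mutants, at -0.79 on the log2 scale in baf GLKD (edgeR adjusted p = 0.139) and -2.10 in emerin. Its difference was 1.30 (SE 0.44, edgeR adjusted p = 0.422). For Six4 both nosgal4 libraries were below all wild-type libraries, with a log2 fold change of -0.63. Emerin G/PI replicate 1 lay between the baf GLKD libraries.

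Signaling lists had medians near 0. The median difference was -0.02 for Toll and Imd recognition and signaling (35 genes, 1 positive and 2 negative), 0.08 for JNK and AP-1 (24 genes, 1 and 1), 0.07 for p53, apoptosis and damage targets (25 genes, 1 and 1), 0.03 for JAK-STAT (17 genes, 3 and 0) and 0.12 for BMP and niche signals (28 genes, 2 and 0). Cytosolic heat shock and chaperone genes, the list nearest to the stated difference in temperature, had 0 of 26 members at the unadjusted threshold and a median of -0.15. In baf GLKD 4 were higher and 2 lower (of all genes, 13.3% and 8.28%). In emerin 9 were higher and 4 lower (of all genes, 28.3% and 26.6%). The median difference of this list was -0.77 against CS alone, 0.11 against yw alone, 0.30 with the second library set only, 0.05 without nosgal4 replicate 1 and -0.44 without baf GLKD replicate 2. Its direction thus turned between settings. The sign of the signaling medians also turned in some settings, from 2 of 33 for JNK and for BMP to 12 of 33 for Toll and Imd.

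Single members of these lists leaned either way. upd3, a ligand of the JAK-STAT receptor induced by tissue damage, was at 1.94 and 2.47 CPM in baf GLKD libraries, against 0.84 and 0.71 CPM in nosgal4 libraries. It was at 1.59, 0.93, 2.09 and 1.62 CPM in emerin libraries, against 1.14 to 2.31 CPM in wild-type libraries. upd3 was called higher in baf GLKD alone, with both nosgal4 libraries below all wild-type libraries, and had a difference of 1.72 (SE 0.55, edgeR adjusted p = 0.385). Buffy, a Bcl-2 family member, was at 8.37 and 10.5 CPM in baf GLKD libraries, against 4.05 and 6.47 CPM in nosgal4 libraries. It was at 22.2, 17.6, 18.8 and 19.8 CPM in emerin libraries, against 3.12 to 9.27 CPM in wild-type libraries. Buffy rose in emerin, with every emerin library above both baf GLKD libraries, and its difference was -1.22 (SE 0.48, edgeR adjusted p = 0.530). Hayan, a serine protease of the Toll and melanization cascade, was at 8.99 and 7.17 CPM in baf GLKD libraries, against 4.73 and 7.44 CPM in nosgal4 libraries. It was at 11.0, 12.2, 8.44 and 8.23 CPM in emerin libraries, against 1.94 to 5.24 CPM in wild-type libraries, with a difference of -1.21 (SE 0.46, edgeR adjusted p = 0.525). For Hayan the step between the controls was 0.91 (nosgal4 against wild type) and that between the mutants -0.30 (baf GLKD against emerin) on the log2 scale, and the ranges of the mutants overlapped.

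The lamina and Chk2 list, 11 genes, had a median difference of 0.06. lok, the gene for Chk2, was at 137 and 144 CPM in baf GLKD libraries, against 246 and 286 CPM in nosgal4 libraries. It was at 121, 62.7, 61.4 and 55.2 CPM in emerin libraries, against 194 to 247 CPM in wild-type libraries. lok fell in both mutants, further in emerin, and the difference was 0.68 (SE 0.32, edgeR adjusted p = 0.637). LamC, the A-type lamin of differentiated cells, was at 125 and 158 CPM in baf GLKD libraries, against 119 and 117 CPM in nosgal4 libraries. It was at 251, 194, 190 and 187 CPM in emerin libraries, against 103 to 149 CPM in wild-type libraries. It rose in emerin, where each library was above baf GLKD, and the difference was -0.47 (SE 0.22, edgeR adjusted p = 0.633).

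The other LEM-domain genes and Lam did not have a called difference. MAN1 was at 79.7 and 84.1 CPM in baf GLKD libraries, against 147 and 132 CPM in nosgal4 libraries, and at 73.3, 51.0, 47.0 and 44.6 CPM in emerin libraries, against 73.9 to 132 CPM in wild-type libraries. MAN1 fell by similar amounts in both, at -0.77 in baf GLKD and -0.84 in emerin, with a 95% interval for the difference of -0.55 to 0.69. For bocks, which encodes a second emerin-like protein, this interval was -0.61 to 0.40, for baf -0.86 to 0.67 and for Lam, the B-type lamin, -0.67 to 1.04.

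Detoxification genes (56 of cytochrome P450 and glutathione transferase) had a median difference of 0.02, with 6 positive and 4 negative. In baf GLKD 23 rose (of all genes, 13.3%), and in emerin 34 rose and 5 fell (of all genes, 28.3% and 26.6%). Cyp18a1, which inactivates ecdysone, was at 35.4 and 54.6 CPM in baf GLKD libraries, against 17.8 and 19.6 CPM in nosgal4 libraries. It was at 27.98, 34.4, 29.3 and 31.0 CPM in emerin libraries, against 21.7 to 38.3 CPM in wild-type libraries. Cyp18a1 rose in baf GLKD and stayed within the wild-type range in emerin, with a difference of 1.15 (SE 0.30, edgeR adjusted p = 0.296). Both nosgal4 libraries were below all wild-type libraries, however, and baf GLKD replicate 1 was itself within the wild-type range. Cyp6d5 was at 16.4 and 6.55 CPM in baf GLKD libraries, against 0.56 and 0.58 CPM in nosgal4 libraries. It was at 25.9, 32.8, 22.1 and 23.7 CPM in emerin libraries, against 3.56 to 15.5 CPM in wild-type libraries. Here nosgal4 was below wild type by -3.56 on the log2 scale (edgeR adjusted p = 0.0235), and the difference was 2.38 (SE 0.73, edgeR adjusted p = 0.380).

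Among small RNA genes outside the piRNA list (11 genes, median 0.01), loqs, a partner of Dicer, was at 37.97 and 36.5 CPM in baf GLKD libraries, against 31.7 and 33.01 CPM in nosgal4 libraries. It was at 71.0, 53.8, 46.2 and 51.4 CPM in emerin libraries, against 24.4 to 34.2 CPM in wild-type libraries. loqs rose in emerin, above both baf GLKD libraries in each case, with a difference of -0.74 (SE 0.22, edgeR adjusted p = 0.347).

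The widest list medians rested on few libraries. Yolk and eggshell genes, products of the fat body and of late follicle cells, had a median difference of 2.63 over 25 genes, 6 positive and 0 negative, but of 0.20 without baf GLKD replicate 1. The medians were 3.296 and 0.30 in baf GLKD replicates 1 and 2, against -0.54 to 1.40 in emerin libraries. dec, a chorion protein gene, was at 196 and 73.7 CPM in baf GLKD libraries, against 40.2 and 33.1 CPM in nosgal4 libraries. It was at 34.6, 63.0, 65.7 and 65.3 CPM in emerin libraries, against 37.2 to 57.1 CPM in wild-type libraries. psd, an eggshell gene, was less uneven, at 23.4 and 15.2 CPM in baf GLKD libraries, against 8.14 and 18.04 CPM in nosgal4 libraries, and at 3.58, 3.32, 2.09 and 1.21 CPM in emerin libraries, against 5.02 to 15.9 CPM in wild-type libraries. psd fell in emerin below every wild-type library, with a difference of 2.43 (SE 0.66, edgeR adjusted p = 0.307).

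Antimicrobial peptide genes, 24 tested, had a median of 1.14 that was 0.36 without baf GLKD replicate 1. Gut and Malpighian tubule genes, 20 tested, had a median of -3.19 with 4 negative, and it was -0.51 with emerin G/PI alone, -8.43 without baf GLKD replicate 1 and 2.13 without nosgal4 replicate 1. betaTry, a trypsin of the gut, was at 0.77 and 0 CPM in baf GLKD libraries, against 18.3 and 0.04 CPM in nosgal4 libraries. It was at 0.49 and 10.2 CPM in emerin G/PI and at 91.8 and 374 CPM in emerin G/PK libraries, against 0 to 5.92 CPM in wild-type libraries. The high levels were thus in the emerin G/PK libraries, and the gut marker sum was 946 to 1044 CPM in the same emerin G/PK libraries. The remaining lists had median differences of 0.29 for tracheal and nerve genes (15 tested, 1 positive and 1 negative), 0.28 for ecdysone synthesis and response (24 tested, 2 and 2), 0.36 for testis-biased genes (33 tested, 1 and 0) and 0.72 for genotype marker genes (10 tested). Single libraries moved these values, to -0.63 without baf GLKD replicate 1 and 1.66 without emerin G/PI replicate 1 for testis-biased genes, and without nosgal4 replicate 2 to -0.18 for tracheal and nerve genes and 0.15 for genotype marker genes. Without nosgal4 replicate 1 the median of tracheal and nerve genes was 0.89.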

How the data were processed

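RNA of newly eclosed ovaries was sequenced after polyA capture. The authors trimmed reads with Trim Galore (0.6.6 in the submitters' processing notes), quantified transcripts with kallisto 0.46.1 on BDGP6.32 (dm6) and used tximeta for gene totals. In the authors' gene table, estimated counts without any scaling for depth are given for 14237 genes in 18 libraries (14194 annotated). Rounding changed none, as all are whole numbers. The authors' transcript tables, with TPM, effective length (another unit) and estimated counts, served only for totals and lengths. In 7 libraries their total is 7.42 to 18.9 times below that of the gene table.

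Genes with at least 10 counts over all libraries were tested (12762). Counts were TMM-normalized and fitted by group with edgeR 4.0.16 (limma 3.58.1, R 4.3.3), and the contrast (baf GLKD minus nosgal4) minus (emerin minus wild type) was tested by quasi-likelihood. All columns of counts matched a sample. The procedure was tested on simulated data.

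Named were all called genes, up to 4 genes of smallest adjusted p per list, and baf, Ote, bocks, MAN1, Lam and lok; values are given for part of these. Past1, CG30383, E(spl)m7-HLH, nolo and CG7737 fall outside the rule. Genes, lists and alternatives were chosen with earlier results of these data known. Alternatives covered normalization, filters, DESeq2 1.42.0, other references or backgrounds, blocks and each library left out. numpy 2.4.6, pandas 2.3.3 and matplotlib 3.10.9 were used for tables and figures.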

Additional observations from a re-analysis of the deposited data

Results flagged for a closer look

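The 6 called genes drew attention because the effect in baf GLKD differed from that in emerin by the test of the difference itself. On the log2 scale the difference was 6.77 for CG2233, 1.77 for CG3036, 1.71 for CG32625, 1.601 for CG6325, -1.10 for Ncc69 and -1.36 for Dph1. Another 12 values drew attention because a library lay far from the rest of its group. Such a distance was examined in 92 sets of libraries, and chance gives about 1 in 20.

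In emerin G/PI replicate 1, lok (121 CPM, nearest other emerin library 62.7), LamC (251 CPM, nearest 194), tej (23.3 CPM, nearest 13.4) and orb (229 CPM, nearest 80.0) were high, and dec was low at 34.6 CPM (nearest 63.0). Among wild-type libraries, yw replicate 1 was high for baf at 195 CPM (nearest 124), for bocks at 49.4 CPM (nearest 36.0) and for Buffy at 9.27 CPM (nearest 4.497). orb was high in yw replicate 2 at 1363 CPM, betaTry in yw replicate 3 at 5.92 CPM, AlaRS-m in CS replicate 1 at 45.5 CPM, and Cyp6d5 in CS replicate 4 at 15.5 CPM.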

How the results depend on the processing

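The count of called differences, 4 positive and 2 negative, moved with many choices. It was 2 and 0 at an adjusted p under 0.01, 116 and 96 against CS alone, 13 and 27 against yw alone, 37 and 8 with emerin G/PK alone, 4 and 0 with emerin G/PI alone, 69 and 49 with strains as separate groups, 126 and 1 with the second library set only (libraries whose transcript and gene tables match), 3 and 1 with the library set as a block, and 61 and 70 in DESeq2. It was 5 and 0 with library size only, 5 and 1 with filterByExpr, and 3 and 0 without the chk2, emerin group. With single libraries left out it ranged from 1 to 37 and from 0 to 7. The cause was not tested.

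The baf effect, 1692 higher and 1057 lower, gave 444 lower with library size only and 210 lower with the second library set only, and ranged from 624 to 1812 and from 88 to 1326 with single libraries left out. The emerin effect ranged from 3121 to 3628 and from 3268 to 3696. For 136 named genes, 4335 of 4488 comparisons kept direction and call, 66 lost a call, 62 gained one, 25 changed sign with no call and 0 reversed a call. Most of these genes were not called, so most of the kept comparisons are of genes that stayed uncalled. All 66 lost calls were of the 6 called genes, each compared in 33 settings. Of 1089 list medians, 12 moved by more than the median SE of the list. That SE is of single genes, so it is a wide mark for a median and does not show that the medians are stable. Their sign turned in 12 of 33 settings for Toll and Imd, 11 for basement membrane and 9 for detoxification genes. It turned in 0 for germ cell identity and the piRNA pathway.

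With replicate number as a block, 2 genes were positive (CG3036 and CG6325) and 0 negative. No label ties the numbers to a shared animal, batch or day, but replicates 1 and 2 of baf GLKD, nosgal4 and emerin G/PI fall into the first and the second library set, so that number and set cannot be told apart there. Same-numbered deviations correlated over 8294 genes at 0.46 between baf GLKD and nosgal4, 0.02 with emerin G/PI and 0.14 with emerin G/PK.

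The limit is the baf effect, estimated from 2 libraries against 2, so that a gene that was not called is not shown to change equally. When 1 of those libraries is left out, the lone one is assumed to vary like the other groups.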
